A study of Arabidopsis thaliana with 84 samples.

Results

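The comparison described here is the effect of L-methionine sulfoximine (MSX) on sorted pericycle cells of Arabidopsis thaliana roots that received no nitrate. Its members are 6 of the 84 Affymetrix ATH1 arrays of the series, chosen by their titles: 3 arrays of pericycle cells given 5 mM KCl with 1 mM MSX (KCl+MSX) and 3 arrays of pericycle cells given 5 mM KCl alone (KCl). All plants were 12 days old, of the Col-0 background, grown in liquid medium at 22 °C with 16 h of light, and had 0.5 mM ammonium succinate as their nitrogen supply and 3 mM sucrose. Both treatments lasted 2 h, after which root cells were freed with wall-digesting enzymes, sorted by fluorescence and frozen, and 50 ng of RNA was amplified by the two-cycle protocol. Other pericycle (Peri) groups of 3 arrays received 5 mM KNO3 with 1 mM MSX and 5 mM glutamine (KNO3+MSX+Gln), 5 mM KNO3 with 1 mM MSX (KNO3+MSX), or 5 mM KNO3 alone. The KNO3 alone was either kept in the digestion solution (KNO3 continuous) or left out of it (KNO3 transitory). The labels do not name the reporter line by which pericycle cells were sorted. They say that KCl and MSX were kept in the digestion solution for the KCl+MSX cells and do not say whether KCl was kept there for the KCl cells, so MSX and this handling cannot be told apart. Replicates are labelled as biological, with no word on separate cultures. The p-values measure the spread between replicates, pooled over all 54 sorted-cell arrays in 18 groups and not over these 6 alone. In sorted populations, fewer cells of a type and less RNA per cell cannot be told apart.

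MSX is a glutamate analogue that blocks glutamine synthetase, the enzyme that joins ammonium to glutamate and so brings inorganic nitrogen into amino acids. The pericycle is the cell layer around the root vasculature from which lateral roots arise, and it lies on the path by which ions enter the xylem. In the study MSX served to part the effects of nitrate itself from those of the nitrogen compounds made from it, and KCl with MSX was the control for nitrate with MSX. No glutamine synthetase locus is paired with a probe set in the annotation used here, so the enzyme's own transcripts were not analysed.

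Pericycle cells with MSX and without nitrate differed from KCl cells at few probe sets. Of 19258 probe sets tested, 13 passed an adjusted p of 0.05 (limma, Benjamini-Hochberg), or 0.0675% of those tested. They were 6 that rose (0.0312%) and 7 that fell (0.0363%), by 1.39 to 3.07 on the log2 scale in size. At an unadjusted p of 0.05 there were 1537 probe sets (7.98%), where 963 would be expected by chance. The median difference over all probe sets tested was 0.01, and 51.1% lay above 0. Leaving out 1 of the 6 arrays at a time gave 2 to 12 calls, with 2 each without KCl+MSX replicate 1 or 2, 3 without KCl replicate 1, and 8 each without KCl+MSX replicate 3 or KCl replicate 2. The last probe set inside the threshold had an adjusted p of 0.0435, and the first outside had 0.0538. Of the 13, 4 are paired with a gene and 9 are unnamed here. The genes are SUFE2, which has a symbol, and 3 that the tables give by locus alone, AT2G32030, AT4G37180 and AT5G19120. These 3 loci and the unnamed probe sets given below were picked after their values were seen.

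RNA quality differed between the groups as well. The difference between the 3' and 5' GAPDH control probe sets, which grows with shortened RNA, was 4.05 to 4.40 log2 units on the KCl+MSX arrays and 2.56 to 3.13 on the KCl arrays, with no overlap. With this difference as a covariate, an alternative added after seeing the data, 4 probe sets passed in place of 13, all of them among the 13: AT4G37180, 247591_at, 250100_at and 1 other unnamed probe set. The second pair of GAPDH probe sets differed by 1.32 to 1.48 on the KCl+MSX arrays and 0.389 to 0.668 on the KCl arrays, again with no overlap. With that difference as a covariate, also added after seeing the data, 10 probe sets passed, 6 of them among the 13, and SUFE2 did not pass (adjusted p = 0.141). Mean array signal was 169 to 174 on the KCl+MSX arrays and 173 to 177 on the KCl arrays. Correlations between any of the 6 arrays ran between 0.814 and 0.941 across probe sets.

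SUFE2 (AT1G67810) encodes a SufE domain protein that activates the plastid cysteine desulfurase in the making of iron-sulfur clusters. Its level was 9.91, 10.15 and 9.86 on the log2 scale on the KCl+MSX arrays, and 7.54, 8.09 and 8.52 on the KCl arrays. All KCl+MSX arrays were higher than all KCl arrays, and the KCl+MSX arrays lay closer together. SUFE2 rose by 1.92 (SE 0.41, 95% interval 1.09 to 2.75, limma adjusted p = 0.0435). The call rests on single arrays: without KCl replicate 1 the difference was 1.66 with an adjusted p of 0.745, and over the 6 fits that leave out 1 array it passed in 1, with adjusted p between 0.0495 and 0.745. With the GAPDH difference as a covariate it was 1.66, with an adjusted p of 0.18.

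SUFE2 was also compared across the other sorted groups. It averaged 8.46 ± 0.32 in KNO3+MSX+Gln cells, 9.11 ± 0.62 in KNO3+MSX cells, 7.33 ± 0.39 in KNO3 continuous cells and 7.48 ± 0.21 in KNO3 transitory cells (SD, n = 3 each). The KNO3+MSX+Gln and KNO3+MSX ranges overlapped. It averaged 9.97 ± 0.16 in the KCl+MSX pericycle cells, above the means of KCl cells of the other populations, which were 8.35 (epidermis and cortex), 8.12 (endodermis and pericycle), 7.64 (stele) and 7.48 (lateral root cap). In KCl alone the pericycle mean of 8.05 ± 0.49 lay among those populations, so SUFE2 did not set the pericycle cells apart from their neighbours. The plot of SUFE2 over the 18 sorted groups shows the 9 KCl+MSX, KNO3+MSX and KNO3+MSX+Gln arrays beside the rest.

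**Figure D1:**
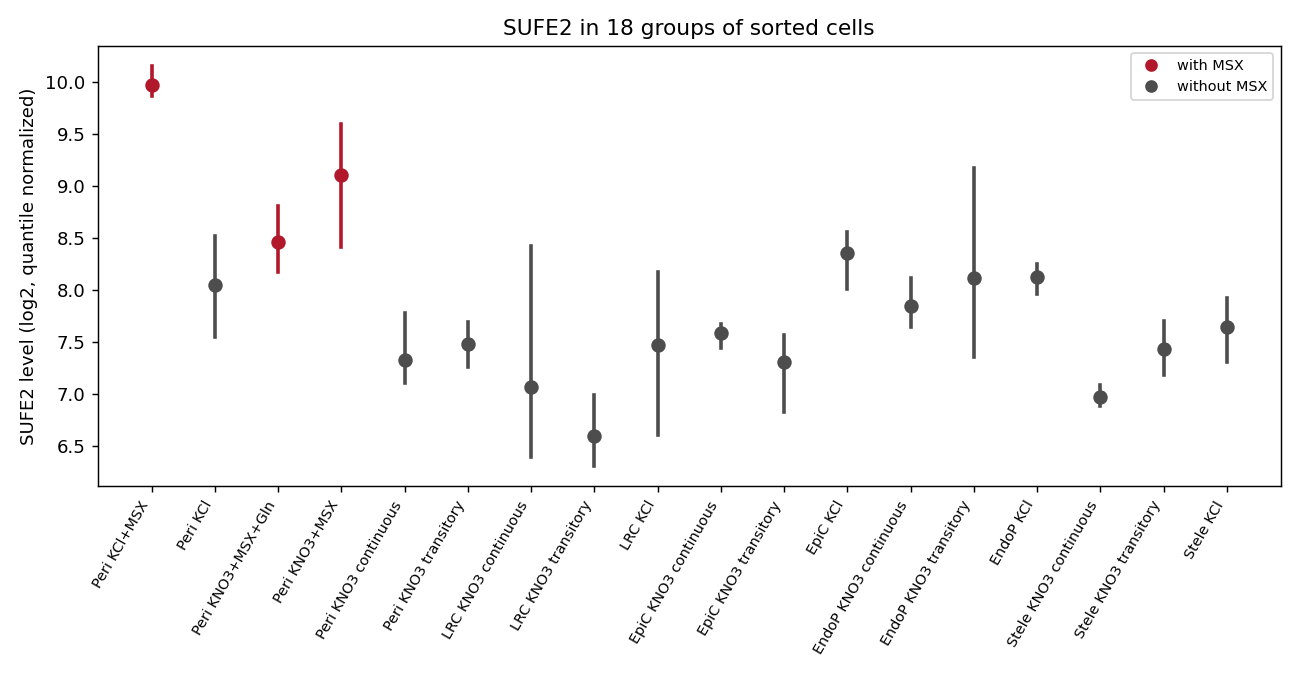
SUFE2 level (log2, quantile normalized) in each of the 18 groups of sorted cells, with the point at the mean of 3 arrays and the line from the lowest to the highest array. Pericycle cells with KCl and MSX have the highest mean, 9.97, and every array of that group lies above 9.17, the highest array of any group without MSX.

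AT2G32030 was the other named rise. Its level was 9.41, 8.95 and 9.04 on the KCl+MSX arrays, and 7.47, 7.87 and 7.89 on the KCl arrays. Every KCl+MSX array lay at least 1 log2 unit above the highest KCl array. AT2G32030 rose by 1.39 (SE 0.29, adjusted p = 0.0418). With and without glutamine its levels overlapped: they were 9.92, 9.24 and 8.98 in KNO3+MSX+Gln cells and 9.69, 8.79 and 9.04 in KNO3+MSX cells, both above the 7.23 to 7.68 of KNO3 continuous cells. It passed in none of the 6 fits that leave out 1 array, with adjusted p between 0.0663 and 0.576.

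AT4G37180 had the smallest adjusted p of all probe sets. Its level was 5.13, 5.08 and 5.67 on the KCl+MSX arrays, against 7.59, 7.53 and 6.83 on the KCl arrays. The groups did not overlap, and AT4G37180 fell by 2.02 (SE 0.32, adjusted p = 0.00237). All 3 KCl+MSX arrays lay below 6.49, the level used to filter low values, so the size of this fall, and of its difference from the one in nitrate, is less certain. It passed in all 6 fits that leave out 1 array, with adjusted p between 9.46e-04 and 0.0459, and with the GAPDH covariate. In nitrate its difference did not pass (-0.85, SE 0.32, adjusted p = 0.0798). With the second GAPDH difference as a covariate AT4G37180 did pass there, as a fall. In KNO3+MSX+Gln cells it stood at 6.76, 7.92 and 7.06, above the 5.33, 5.53 and 6.47 of KNO3+MSX cells.

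AT5G19120 had a level of 7.54, 7.28 and 7.18 on the KCl+MSX arrays, against 10.14, 9.48 and 9.36 on the KCl arrays. It fell by 2.32 (SE 0.48, adjusted p = 0.0371), with the groups far from overlap, but passed in none of the 6 fits that leave out 1 array, with adjusted p between 0.052 and 0.525. Cells with glutamine had the highest levels of it among the pericycle groups. They were at 10.54, 10.58 and 10.69, while KNO3+MSX cells were at 7.33, 6.98 and 8.72.

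Among the 9 unnamed probe sets, 4 rose, by 1.62 to 3.03, and 5 fell, by 1.46 to 3.07 on the log2 scale. The 2 that rose most and the 2 that fell most are given by their probe set identifiers. The level of 247591_at was 10.56, 9.94 and 9.06 on the KCl+MSX arrays and 6.26, 6.98 and 7.23 on the KCl arrays, a rise of 3.03 (SE 0.52, adjusted p = 0.00399). The level of 250100_at was 10.40, 10.82 and 9.60 on the KCl+MSX arrays and 6.98, 7.79 and 9.20 on the KCl arrays, a rise of 2.28 (SE 0.40, adjusted p = 0.00425). For 250100_at the KCl arrays spread widely, and KCl replicate 3 came closest to the KCl+MSX arrays.

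Of the falls, the level of 260030_at was 5.94, 6.05 and 5.58 on the KCl+MSX arrays and 9.47, 8.67 and 8.66 on the KCl arrays, and it fell by 3.07 (SE 0.58, adjusted p = 0.0102). The level of 266965_at was 6.85, 6.92 and 6.48 on the KCl+MSX arrays and 8.33, 9.11 and 8.92 on the KCl arrays, and it fell by 2.04 (SE 0.38, adjusted p = 0.0102). Both pairs of groups were apart by more than 1 log2 unit, and all 3 KCl+MSX arrays of 260030_at lay below the filter level of 6.49, which makes the size of its fall less certain. Of the 6 fits that leave out 1 array, 247591_at and 250100_at passed in 3 each, 260030_at in 2 and 266965_at in 1. The plot of levels by group sets these 4 probe sets beside the 4 loci.

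**Figure D2:**
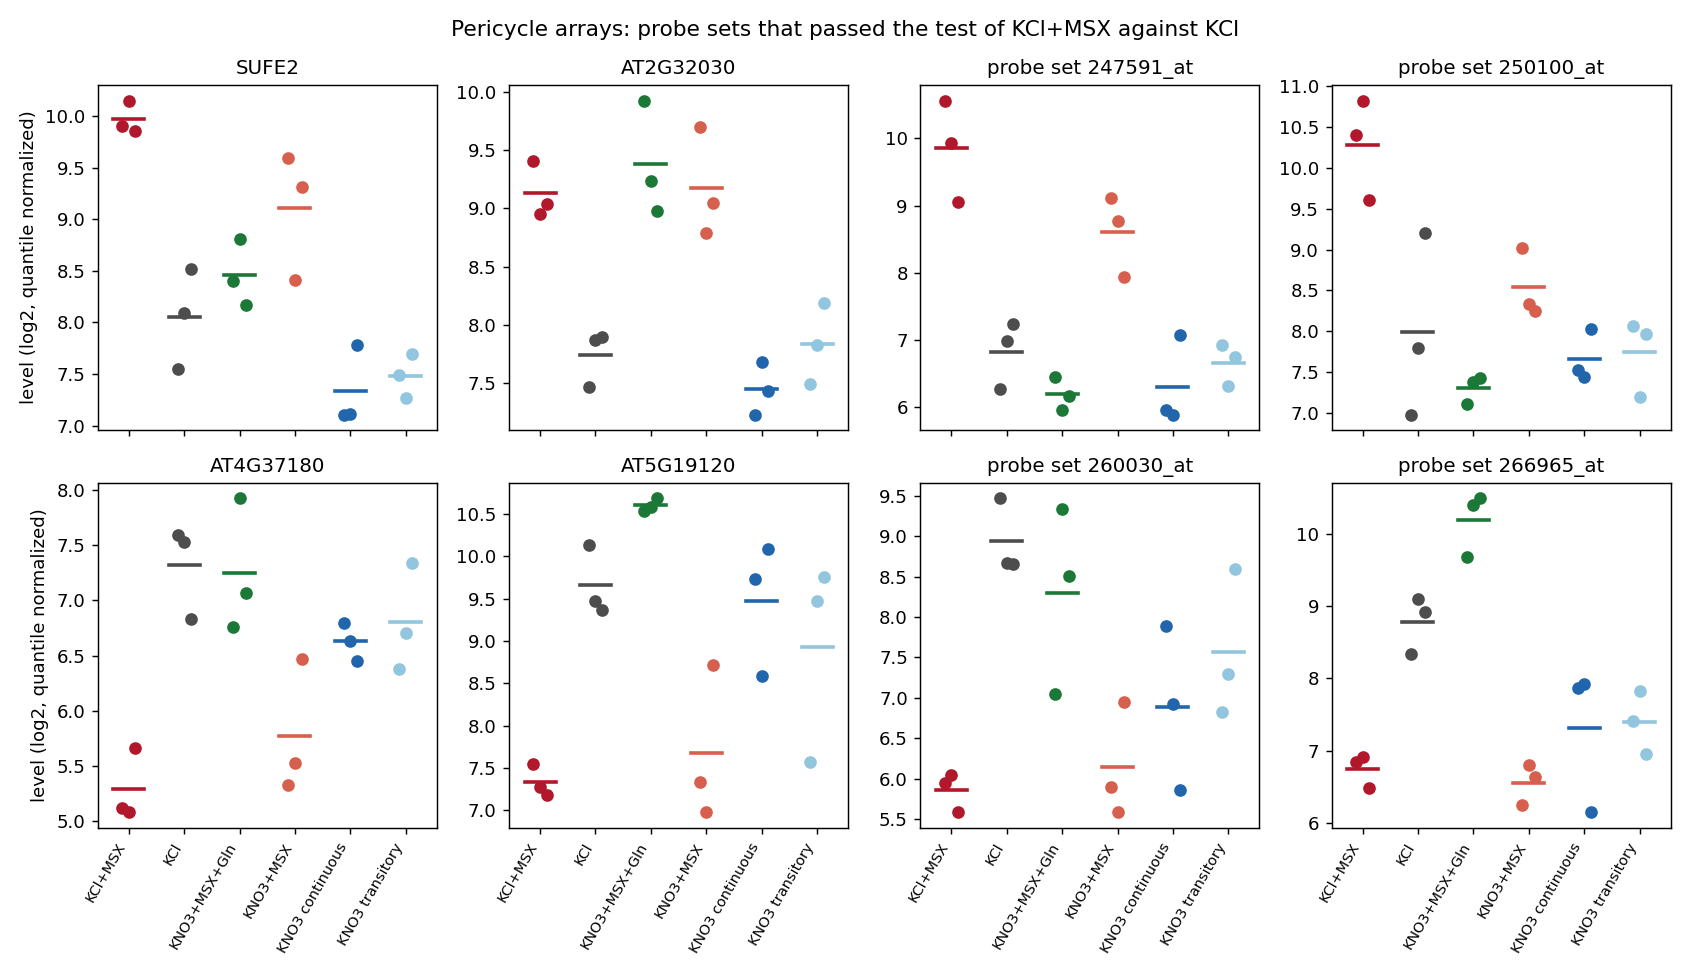
Level (log2, quantile normalized) of SUFE2, 3 loci and 4 unnamed probe sets in the 6 pericycle groups, with a point for each array and a bar at the mean of 3 arrays. In each panel the 3 KCl+MSX arrays lie on 1 side of the 3 KCl arrays. The glutamine arrays lie near or past the KCl level for AT4G37180, AT5G19120, 266965_at, 247591_at and 250100_at, and with the KNO3+MSX arrays for AT2G32030. For SUFE2 and 260030_at the glutamine arrays overlap the KCl arrays, and for SUFE2 they overlap the KNO3+MSX arrays as well.

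The same drug was given in nitrate. KNO3+MSX and KNO3 continuous cells share no array with the KCl+MSX and KCl cells, but the fit, its estimate of the spread and the normalization are common to all of them. Arrays in nitrate varied more. The median correlation of an array with the others of its group was 0.784 to 0.871 (KNO3+MSX) and 0.670 to 0.822 (KNO3 continuous). It was 0.905 to 0.929 (KCl+MSX) and 0.881 to 0.917 (KCl). Mean array signal was 175 to 289 in KNO3+MSX cells and 205 to 372 in KNO3 continuous cells. In nitrate 1749 probe sets passed (9.08%). All 13 differences had the same sign there, against 61.9% of the probe sets tested. Of the 6 that rose without nitrate, 4 also rose in nitrate at an adjusted p of 0.05, where 6% of all probe sets did, and of the 7 that fell, 4 also fell, where 3.08% did. SUFE2 rose by 1.77 in nitrate (SE 0.41, adjusted p = 0.00575). AT2G32030 rose by 1.73 (SE 0.29, adjusted p = 4.45e-04) and AT5G19120 fell by 1.79 (SE 0.48, adjusted p = 0.0158). For AT5G19120 the groups in nitrate overlapped, with a KNO3+MSX array at 8.72 above a KNO3 continuous array at 8.59. Between KNO3+MSX and KNO3 continuous arrays the first GAPDH difference overlapped, at 3.16 to 3.84 and 2.81 to 4.14, but the second did not, at 0.846 to 1.33 and 0.04 to 0.654. With the second as a covariate, 780 probe sets passed in nitrate (4.05%), and 8 of the 13 passed there with the same sign, SUFE2, AT2G32030 and AT5G19120 among them. These 8 included AT4G37180 and not the unnamed 253487_at, the reverse of the fit without a covariate.

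At an unadjusted p of 0.001, a limit picked after seeing the data, there were 107 probe sets, 48 higher and 59 lower with MSX, where 19.3 would be expected by chance. Of the 94 beyond the 13 calls, 90 had the same sign in nitrate, and 37 passed an adjusted p of 0.05 there with that sign. Over all probe sets tested, 61.9% had the same sign, and 9.08% passed in nitrate in either direction. Across all 19258 probe sets the 2 sets of differences had a Pearson correlation of 0.438, a description across probe sets, which are not independent replicates. The scatter of MSX differences without and with nitrate shows the calls at the upper right and the lower left.

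**Figure D3:**
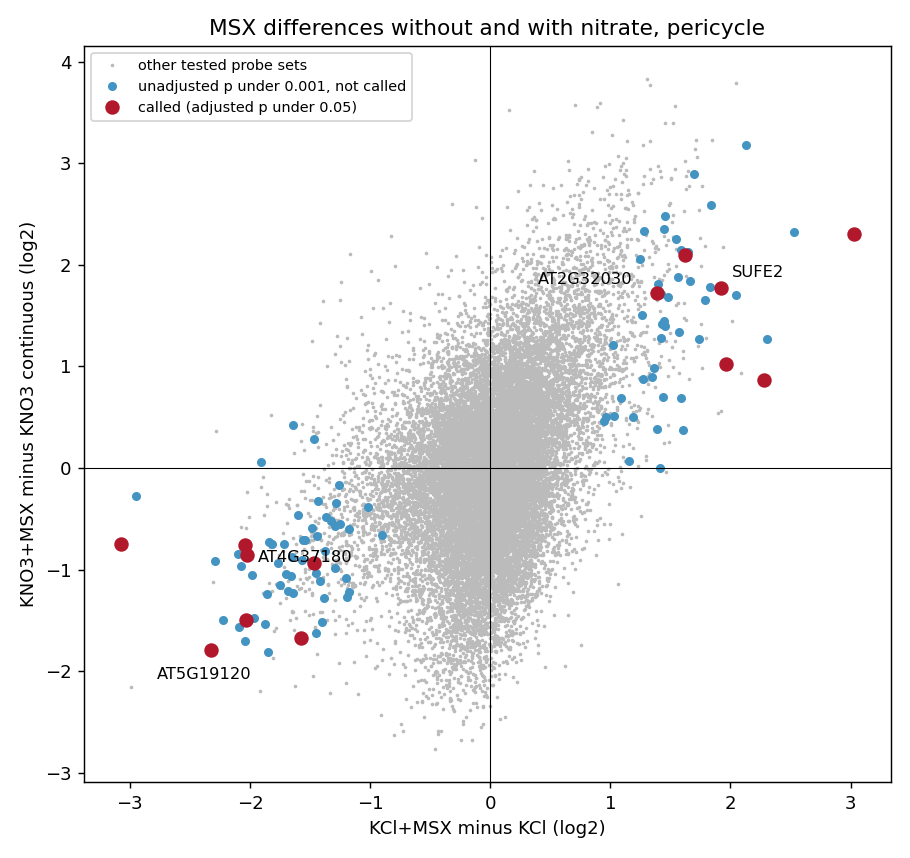
Difference of KCl+MSX minus KCl (horizontal axis, log2) against KNO3+MSX minus KNO3 continuous (vertical axis, log2) for the 19258 probe sets tested in pericycle cells, with the 13 called without nitrate in red and the other 94 with an unadjusted p under 0.001 in blue. All 13 red points have the same sign on both axes.

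Whether MSX acted differently without nitrate and in nitrate was tested as the difference of the 2 effects. No probe set passed (limma, smallest adjusted p 0.648), and 1457 had an unadjusted p under 0.05 (7.57% of those tested). For SUFE2 the effect without nitrate minus that in nitrate was 0.15 (95% interval -1.03 to 1.32). For AT2G32030 it was -0.34 (-1.18 to 0.50) and for AT5G19120 it was -0.53 (-1.90 to 0.83). For AT4G37180 it was -1.17 (-2.08 to -0.26, unadjusted p = 0.0131, adjusted p = 0.648). The 13 were chosen on the arrays without nitrate, so a larger size there is part of the choice. The smallest p among genes with a symbol were those of ATSBT5.2 (-2.07), UGT73B5 (-1.75), AR781 (-2.87), B160 (1.65), PGM (-2.32) and PRA1.H (1.05), with unadjusted p between 0.00178 and 0.00247 and an adjusted p of 0.648 each.

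Glutamine, the product of the blocked enzyme, was given together with MSX in nitrate only. For 12 of the 13 probe sets the mean of the KNO3+MSX+Gln arrays differed from that of the KNO3+MSX arrays in the direction opposite to the MSX effect without nitrate, where 61.1% of all probe sets did, AT2G32030 being the exception. For 8 of the 13 the 2 groups did not overlap in that direction, 2 of the 6 that rose and 6 of the 7 that fell, where 13.4% of all probe sets were so placed. The KNO3+MSX arrays also served as the MSX side of the comparison in nitrate. The results in nitrate and with glutamine are therefore not independent of each other. Levels of 247591_at were 6.45, 5.96 and 6.17 in KNO3+MSX+Gln cells and 9.11, 8.77 and 7.94 in KNO3+MSX cells. Levels of 266965_at were 9.68, 10.41 and 10.50 in KNO3+MSX+Gln cells and 6.24, 6.80 and 6.63 in KNO3+MSX cells, so that glutamine cells also exceeded the 8.33 to 9.11 of KCl cells. The GAPDH difference was 3.97 to 5.33 in KNO3+MSX+Gln cells, above the 3.16 to 3.84 of KNO3+MSX cells, and its part in these levels was not tested.

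Few genes with a symbol came near the threshold, and those next in line are given by their values. UGT76D1, a UDP-glycosyltransferase, had levels of 9.07, 8.65 and 8.40 on the KCl+MSX arrays and 6.34, 7.86 and 7.16 on the KCl arrays. The groups did not overlap, and the difference of 1.59 (SE 0.37) had an adjusted p of 0.0696. In nitrate UGT76D1 rose by 2.14 (adjusted p = 4.45e-04). The serine carboxypeptidase-like gene scpl31 was at 5.11, 5.99 and 5.00 on the KCl+MSX arrays and 8.34, 7.02 and 7.62 on the KCl arrays, a difference of -2.29 (SE 0.55, adjusted p = 0.0893), and -0.91 in nitrate (adjusted p = 0.275). All KCl+MSX arrays of scpl31 lay below the filter level of 6.49, so the size of its difference without nitrate is less certain.

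The remaining genes of this kind had adjusted p between 0.186 and 0.334. On the higher side were PUB25, a U-box ubiquitin ligase (0.94), CYP71B34, a cytochrome P450 (1.25), UGT71B1, a glycosyltransferase (1.17), and TET14, a tetraspanin (0.72). On the lower side were ATLP-1, a thaumatin-like protein (-1.59), PRH75, a DEAD-box RNA helicase (-1.53), ATO, a splicing factor subunit (-1.198), PDF2.1, a plant defensin (-1.43), and BRL1, a brassinosteroid receptor (-1.33). In nitrate none of these 9 passed. Levels below the filter level of 6.49 were found on all KCl+MSX and KCl arrays for TET14. The same held for all KCl arrays of PUB25 and CYP71B34 and all KCl+MSX arrays of ATLP-1, ATO and BRL1. The sizes of these differences are therefore less certain.

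Pathway lists gave 1 passing member, SUFE2. Of 338 loci in the hand-written lists, 60 have a probe set whose gene symbol the tables pair with the locus, and 58 of them passed the filter on low values. With the plastid-encoded genes and the UDP-glycosyltransferases, 168 genes were tested, of which 167 did not pass and 15 had an unadjusted p under 0.05, where 7.98% of all probe sets did. A further 17 listed loci have a probe set but no such paired symbol and were left out. No member was measured under a name for ammonium assimilation, ammonium and amino acid transport, ethylene synthesis, or proline and glutamate-derived amino acids, where 2 loci were among those left out, and 0 mitochondria-encoded genes had a probe set. The plot of list members by list shows their differences around 0.

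**Figure D4:**
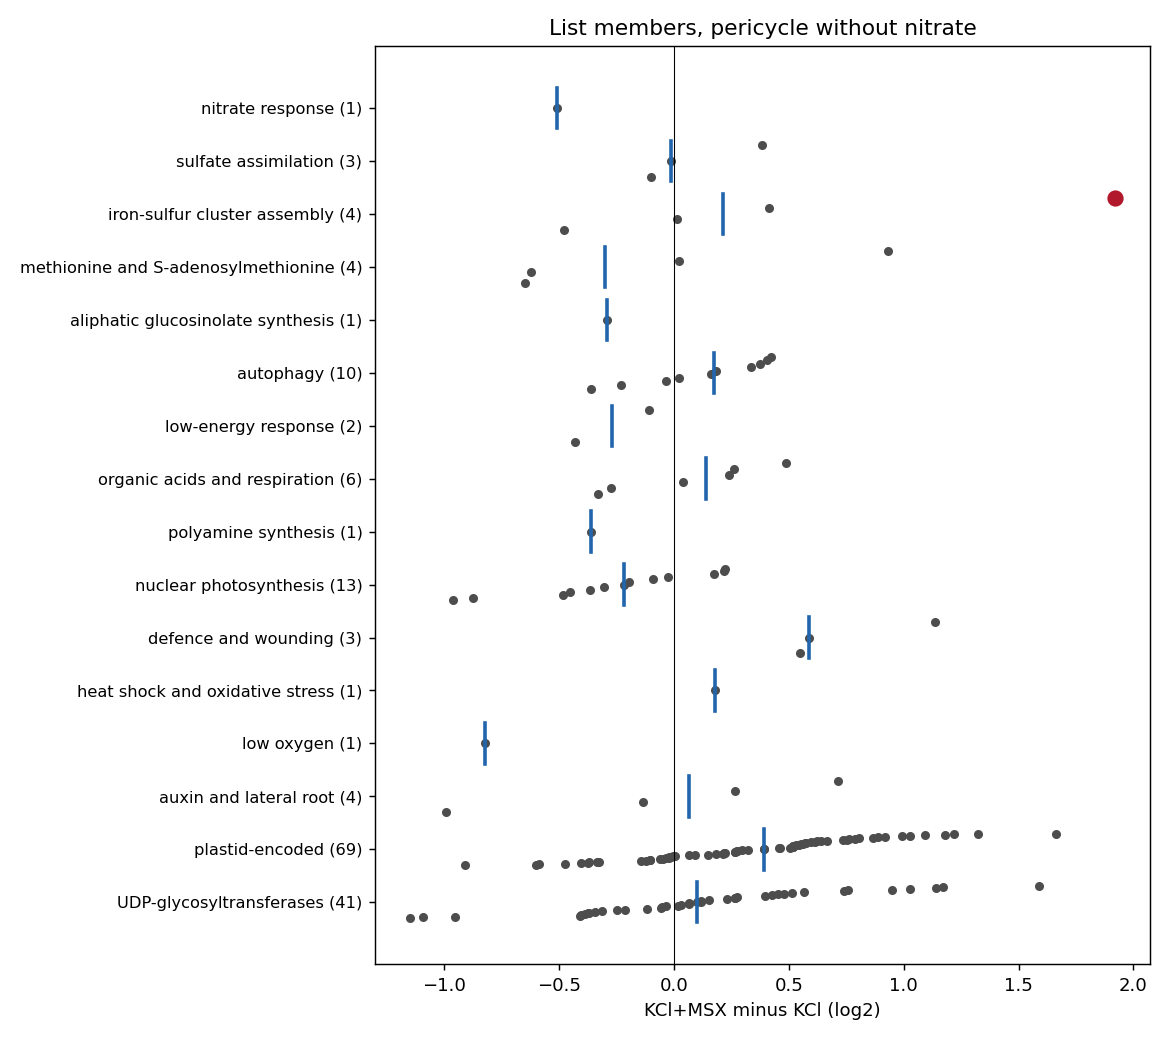
Difference of KCl+MSX minus KCl (horizontal axis, log2) for each tested member of each gene list, with the number of members in brackets, the list's median as a blue bar and the passing member, SUFE2, in red. Most members lie within 1 log2 unit of 0, and the plastid-encoded genes and UDP-glycosyltransferases reach furthest on the high side after SUFE2.

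In sulfur metabolism, the iron-sulfur cluster list had 4 members tested and a median of 0.21, beside 0.01 over all probe sets. SUFE2 was chosen as the gene of note with these results known, so its count in the list is no independent evidence. NFS2, the plastid cysteine desulfurase, had a difference of 0.41 (SE 0.31), the scaffold ISU1 of mitochondria -0.48 (SE 0.36), and the plastid carrier HCF101 0.01 (SE 0.28). For the sulfate list, the ATP sulfurylases APS3 and APS4 had 0.38 (SE 0.41) and -0.01 (SE 0.46), and sulfite reductase, SIR, had -0.10 (SE 0.54). In nitrate APS3 rose by 1.45 (adjusted p = 0.0218). For methionine the median of 4 members was -0.30. MMT, which makes S-methylmethionine, was at 10.35, 9.88 and 10.19 on the KCl+MSX arrays and 8.62, 9.64 and 9.37 on the KCl arrays, a difference of 0.93 (SE 0.54, adjusted p = 0.745) between groups that did not overlap. CBL, cystathionine beta-lyase, had -0.62 and MGL, methionine gamma-lyase, -0.65, also without overlap, which held for 19.4% of all probe sets, though the MGL groups nearly touched (6.93 against 6.94). The methyltransferase HMT1 had 0.02.

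Autophagy, by which cells break down their own contents when nutrients run short, was represented by 9 ATG8 genes and ATG3. ATG8 proteins coat the growing autophagosome and ATG3 joins them to lipid. None of the 10 passed, their median was 0.17, and their differences lay between -0.36 and 0.42. ATG8A was at 9.49, 9.66 and 9.92 on the KCl+MSX arrays and 9.36, 9.10 and 9.41 on the KCl arrays, a difference of 0.40 (SE 0.48). In nitrate 5 of the 10 rose with MSX (ATG8A by 2.03, ATG8C by 1.68, ATG8E by 1.88, ATG8F by 1.40 and ATG8I by 1.26), where 6% of all probe sets rose. The differences of effect did not pass: for ATG8A it was -1.62 (unadjusted p = 0.0206) and for the other 4 the unadjusted p was 0.0575 to 0.0899. ATG8A, ATG8G and ATG8I had groups that did not overlap, ATG8G lower with MSX (-0.36), against 19.4% of all probe sets.

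The nitrate response list was represented by 1 gene, so it says little about nitrate-responsive genes as a class. Of its 30 loci, 8 have a probe set, and only PGM has a paired symbol and was tested. PGM (AT1G78050), a phosphoglycerate mutase-like gene, was at 8.15, 8.55 and 7.84 on the KCl+MSX arrays and 10.16, 7.63 and 8.28 on the KCl arrays, with KCl replicate 1 well above the rest, and the difference was -0.51 (SE 0.51). In nitrate it rose by 1.81 with MSX (adjusted p = 0.0209). Of 6 organic acid and respiration genes none passed, with a median of 0.14. SDH1-2, a succinate dehydrogenase subunit, had the highest difference, 0.49 (SE 0.42), and rose by 1.74 in nitrate (adjusted p = 0.00819). The low-energy genes MCCA and IVD, which break down branched-chain amino acids, had -0.11 and -0.43. SAMDC of polyamine synthesis had -0.36, BCAT4 of glucosinolate synthesis -0.29 and HRA1, a repressor of the low-oxygen response, -0.82 (SE 0.70).

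Among defence genes, WRKY6, a transcription factor of senescence and defence, was at 10.07, 9.09 and 9.89 on the KCl+MSX arrays and 7.84, 9.06 and 8.75 on the KCl arrays. Its difference was 1.13 (SE 0.50, unadjusted p = 0.0286, adjusted p = 0.519), with the lowest KCl+MSX array barely above the highest KCl array. WRKY53 had 0.59 (SE 0.38) and the zinc finger gene STZ 0.55 (SE 0.46). In nitrate all 3 rose, by 2.56, 1.28 and 1.54, where 6% of all probe sets rose. PDF1.2 did not pass the filter on low values. GSTU25, a glutathione transferase of the stress list, had 0.18.

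The auxin and lateral root list bears on what pericycle cells are known for. LBD16, a transcription factor of lateral root initiation, was at 7.03, 6.96 and 5.94 on the KCl+MSX arrays and 8.51, 7.08 and 7.33 on the KCl arrays. The groups touched without overlap, and the difference was -0.99 (SE 0.40, unadjusted p = 0.0163, adjusted p = 0.43). The auxin-conjugating enzymes GH3.1, GH3.3 and GH3.5 had 0.71, -0.14 and 0.26. LBD29 did not pass the filter on low values.

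Plastid-encoded genes leaned upward, and the lean rested on 2 arrays. Of 69 tested, 49 had a difference above 0, where 51.1% of all probe sets did, the median was 0.39, and none passed. KCl+MSX replicate 2 was the highest of the 6 arrays for 63 of the 69, and without it the median was -0.05 and 31 lay above 0. Without KCl replicate 2, which was the lowest for 39 of the 69, the median was 0.07 and 36 lay above 0. ndhH, of the plastid NDH complex, had the largest difference at 1.66 (SE 0.46, adjusted p = 0.17), with levels of 7.95, 8.69 and 6.13 on the KCl+MSX arrays and 6.62, 5.53 and 5.63 on the KCl arrays. In nitrate 4 of the 69, ndhA, ndhE, ndhG and ndhH, rose with MSX, by 1.84 to 2.09. This share is near the 6% of all probe sets that rose.

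Nuclear genes of photosynthesis did not share that lean. Of 13 tested, 10 had a difference below 0, with a median of -0.22, and none passed. KCl+MSX replicate 1 was the lowest of the 6 arrays for 11 of the 13, and without it the median was 0.16. ATPC1, a subunit of the plastid ATP synthase, had the largest difference, -0.96 (SE 0.49, adjusted p = 0.641), and PSAN of photosystem I had -0.88 (SE 0.63). The other 11, light-harvesting, photosystem and carbon fixation genes and PORB of chlorophyll synthesis, lay between -0.48 and 0.22.

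UDP-glycosyltransferases, enzymes that attach sugars to hormones and secondary compounds, had 41 of 47 genes tested, a median of 0.10 and no passing member, with 8 at an unadjusted p under 0.05, against 7.98% of all probe sets. UGT73B5 had 1.03 (SE 0.38) without nitrate, with levels of 9.94, 8.72 and 9.03 on the KCl+MSX arrays and 7.81, 8.55 and 8.26 on the KCl arrays, and rose by 2.78 in nitrate (adjusted p = 3.52e-05). UGT73C7 had 1.14 (SE 0.53) and UGT73D1 0.95 (SE 0.46). On the low side UGT71C3 had -1.09 (SE 0.43) and UGT88A1 -0.96 (SE 0.38). In nitrate 7 of the 41 rose with MSX, against 6% of all probe sets, and UGT76D1, UGT73B5, UGT73C7 and UGT73D1 were among them.

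The labelled cell type could hardly be checked. Of 7 genes on the pericycle list, SUFE2 alone has a named probe set, and its levels did not set KCl pericycle cells apart. SUFE2 was put on that list as the gene of note of this comparison. No independent pericycle marker was therefore measured under a name. Markers of neighbouring tissues were measured at 1 gene each. LHW of the stele was at 9.77 to 10.01 on the KCl+MSX arrays and 10.11 to 10.48 on the KCl arrays, a difference of -0.43 (SE 0.55). These groups did not overlap, which held for 19.4% of all probe sets, and LHW did not pass. GSO1 of the endodermis had a difference of 0.58 (SE 0.49), JKD of the cortex 0.15 (SE 0.50) and EXPA7 of root hair cells -0.05 (SE 0.83). No root cap marker was measured under a name. The part that a shift in cell types or the GAPDH difference had in the 13 calls was not tested beyond the covariate fits.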

How the data were processed

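The authors deposited 1 log2 signal for each probe set and array, with values running between 0 and 14.46; the software, background correction and normalization are not given in the sources used here, and their range gave the log2 scale. Scanner setting files came with the arrays and were not used. The 54 two-cycle arrays of sorted cells, in 18 groups of 3, were quantile normalized together, and one-cycle arrays were left out. Of 22810 probe sets, 64 Affymetrix controls were removed, and a probe set was tested where 3 or more arrays exceeded the 40th percentile of the whole table.

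One coefficient per group was fitted with limma 3.58.1 in R 4.3.3 (lmFit, eBayes with an intensity trend), two-sided, adjusted by Benjamini-Hochberg over 19258 probe sets, with a threshold of 0.05. Every adjusted p and SE in the text comes from this model or from the alternative named beside it. With 3 arrays against 3, the smallest exact permutation p for 1 gene is 0.1. The code was tested on simulated data. Arrays have no read depth, and their number limits the precision. The platform annotation, updated by Entrez identifier (13436 matched), gives 1 gene for 13513 probe sets, several for 503 and none for 8794, and no gene was named from the last 2 kinds, which may well have one. One gene was represented by the probe set with the highest mean where it had several.

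Named genes with a symbol are those that passed with groups apart, filled to 6 in each direction by the smallest unadjusted p among genes with a symbol and groups apart, then SUFE2, members of the gene lists, and the 6 smallest p for the difference of effects. Members and lists were chosen with earlier results of these data known. Alternatives covered the normalization, filter, arrays in the fit, trend, array weights, signal and GAPDH covariates, a replicate block and leaving out each array.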

Additional observations from a re-analysis of the deposited data

How the results depend on the processing

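All 13 calls kept their direction under each of the 19 alternatives. Their groups do not overlap and every alternative draws on the same arrays, so a reversal was hardly possible. The number of probe sets that passed varied. The count was 41 with values as deposited (16 higher, 25 lower), 11 with median centring (3 higher, 8 lower), 14 without a filter, 14 with a filter at the 60th percentile and 14 without an intensity trend. It was 1 in a fit to the compared arrays only, and 1 in a fit to the Peri arrays only. It was 68 with array signal as a covariate. It was 22 (7 higher, 15 lower) without 2 sorted arrays, lateral root cap in continuous nitrate replicate 1 and endodermis and pericycle in transitory nitrate replicate 1. It was 4 and 10 with the first and second GAPDH difference as a covariate, and 1203 with array weights, whose estimation did not converge. Without 1 array the count was between 2 and 12: leaving out KCl+MSX replicate 1, 2 or 3 gave 2, 2 and 8, and leaving out KCl replicate 1, 2 or 3 gave 3, 8 and 12. AT4G37180 passed in 16 of the 19 alternatives and SUFE2 in 9. List members past the threshold, 1 in the report, numbered 0 in the fits to compared or Peri arrays only and with either GAPDH covariate, 2 with array signal, 24 with array weights, and 0 to 1 without 1 array. The difference of the MSX effects had no call under any alternative except array weights, with 8595. Replicate numbers did not pair the arrays: same-numbered KCl+MSX and KCl arrays had correlations of deviations of 0.10, 0.03 and 0.03. With the replicate number as a block in the compared arrays 1 probe set passed and 0 list members did. A scan run block was not run, because the scanner files give no run here. The cause of these shifts was not tested. The smaller fits had fewer arrays and were also normalized and filtered anew. They tested 14205 probe sets for the compared arrays and 17159 for the Peri arrays.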
